A study of Homo sapiens with 6 samples.

Results

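The phenotype-switch and EMT genes are 10 genes that mark invasive or mesenchymal melanoma cells or their counterpart, namely ZEB1, ZEB2, SNAI2, TWIST1, AXL, VIM, CDH1, CDH2, NGFR and WNT5A. They were chosen by name as genes known in melanoma, with earlier results of these data known, and are 10 of 13140 protein-coding genes that had a listed bin in their exons. The study immunoprecipitated the RNA-binding protein CELF1 (also called CUGBP1) together with its RNA from SK-Mel-103 and from UACC-62, 2 established human melanoma lines, and sequenced the RNA of the immunoprecipitate (IP) and of the input. No treatment is named. Cells grown in DMEM were crosslinked with formaldehyde, lysed and sonicated before the IP with an anti-CUGBP1 antibody. SK-Mel-103 had 1 IP sample (replicate 1) and UACC-62 had 2 (replicates 1 and 3), each with its own input. The data are lists of 20-base bins that passed peak calling in the IP, each with its IP reads and, in another column, the input reads of the same bin. Member bins were those whose centre lay in an exon of the gene on the transcript strand, which numbered 738 of 816781 listed bins in SK-Mel-103, 295 of 780750 in UACC-62 replicate 1 and 368 of 862731 in UACC-62 replicate 3. No member bin lay in an exon of another gene.

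In epithelial-mesenchymal transition (EMT), transcription factors of the ZEB, SNAIL and TWIST families repress E-cadherin (CDH1) and favour N-cadherin (CDH2) and vimentin (VIM). Melanocytic cells differ from epithelial cells in that ZEB2 and SNAI2 accompany the differentiated state, whereas ZEB1 and TWIST1 accompany a dedifferentiated, invasive one. The receptor tyrosine kinase AXL, the neurotrophin receptor NGFR and the secreted ligand WNT5A are markers of that second state, and the change between the states is called the phenotype switch. CELF1 is known for binding GU-rich stretches of mRNA, often in 3′ UTRs.

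For the members except SNAI2, CDH1, NGFR and WNT5A, the bin whose lowest IP count over the 3 samples was highest is shown, as a place where each sample had reads that can be compared (GRCh37; 5′ to 3′ on the transcript strand; capitals mark the trinucleotide UGU, a minimal core of GU-rich stretches). Each lay in a 3′ UTR.
VIM, chr10:17279501-17279520, plus strand: aagguauuuugaauaccauu
ZEB2, chr2:145145581-145145600, minus strand: aaaaUGUagccaaacuaaga
ZEB1, chr10:31818081-31818100, plus strand: guuuuuuaccagacucccau
TWIST1, chr7:19155201-19155220, minus strand: uuuauuuauugaggacccau
CDH2, chr18:25531741-25531760, minus strand: accaugauaugcuucaacac
AXL, chr19:41766461-41766480, plus strand: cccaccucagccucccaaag
A second set, chosen after its values were seen, holds 2 of the 3 AXL bins with more than 100 IP reads in SK-Mel-103 and the NGFR bin with the most, which had no listed counterpart in UACC-62, and all lay in a 3′ UTR.
AXL, chr19:41767061-41767080, plus strand: cagaugcuccaagauucuag
AXL, chr19:41767221-41767240, plus strand: uuucuaaUGUuggacaccuu
NGFR, chr17:47592261-47592280, plus strand: cccuccuaucaccuccccuc
UGU occurred in the ZEB2 bin and in the second of these AXL bins, and it occurred in 30.7% of all 844402 listed exonic bins. The sequence of the AXL bin in the first set was found 35999 times in the genome, counting both strands, whereas each of the other 8 had a single copy.

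Over all listed bins, the IP of SK-Mel-103 held 10958459 reads and its input 8453517. The IPs of UACC-62 replicates 1 and 3 held 11333805 and 14436573 reads, and their inputs 10161917 and 8900292. The lowest listed IP count was 4 reads in every sample, and bins with 31 to 60 input reads needed 5, so that a bin absent from a list may still have held a few reads. Input reads of absent bins are not known, and the input values below are therefore conditional on the IP and cannot serve as a separate measure of expression. In bulk lysates, fewer cells with a transcript and less of it per cell cannot be told apart. Of the melanocyte lineage markers, SOX10 held 864 input reads in SK-Mel-103 against 2115 and 1080 in UACC-62. MITF held 18 against 6034 and 5000, MLANA 18 against 826 and 926, and TYR, DCT and S100B were listed at 0 in SK-Mel-103 and between 75 and 4677 in UACC-62, while TYRP1 and PMEL were at 0 in all 3. Of 5 keratinocyte and 5 blood cell markers, at least 4 each were at 0 in every sample, and summed input was at most 9 reads. Endothelial and fibroblast markers summed to 0 and 10 input reads in SK-Mel-103, against 82 and 31 and 239 and 137 in UACC-62, of which KDR and LUM gave all.

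ZEB1, a zinc-finger repressor of CDH1, was higher in SK-Mel-103 than in UACC-62 in both input and IP. Its exons held 1134 IP reads in SK-Mel-103 against 215 and 416 in UACC-62 replicates 1 and 3, and 1026 input reads against 156 and 250. SK-Mel-103 stood above both UACC-62 replicates in either fraction. The difference was 2.37 on the log2 scale in input (SE 0.44, adjusted p = 4.1e-05) and 1.72 in IP (SE 0.47, adjusted p = 0.011; edgeR quasi-likelihood test, Benjamini-Hochberg over all genes tested, as for all adjusted p-values here). Single ZEB1 bins were shallow, with at most 41 IP reads in SK-Mel-103 and 17 in either UACC-62 replicate. The 4 bins with more than 30 IP reads in SK-Mel-103 were all in the 3′ UTR, and 2 of them were listed in UACC-62 replicate 1 and 4 in replicate 3, with lower counts.

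SNAI2 and TWIST1 went the other way. SNAI2, a SNAIL-family factor of the neural crest and melanocytes, held 161 IP reads in SK-Mel-103 against 392 and 537 in UACC-62, and 132 input reads against 601 and 617. It was lower in SK-Mel-103, at a log2 difference of -2.16 in input (SE 0.51, adjusted p = 0.00094), and at -1.71 in IP (SE 0.57, adjusted p = 0.039). TWIST1, a basic helix-loop-helix factor, held 42 IP reads against 74 and 222, and 34 input reads against 152 and 173. Its log2 difference was -2.21 in input (SE 0.85, adjusted p = 0.041) and -1.88 in IP (SE 0.85, adjusted p = 0.14), so that the IP difference did not pass although SK-Mel-103 lay below both replicates. TWIST1 rested on 6, 11 and 24 listed bins. Neither call was firm, as the SNAI2 IP difference had an adjusted p of 0.21 without TMM scaling and 0.096 over bins listed in all 3 samples, and the TWIST1 input difference one of 0.071 without TMM scaling.

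ZEB2, the ZEB factor of melanocytes, showed no difference that passed the test. Its exons held 629 IP reads in SK-Mel-103 against 635 and 821 in UACC-62, and 427 input reads against 643 and 734. The log2 difference was -0.65 in input (SE 0.42, adjusted p = 0.24) and -0.41 in IP (SE 0.48, adjusted p = 0.63), and the IP difference turned to 0.09 without TMM scaling. ZEB1 and ZEB2 had near-equal IP levels per length in UACC-62, with 4.57 and 5.42 RPKM (the usual reads per kb of exon, scaled to the library's reads in genes after TMM) for ZEB1 against 5.61 and 4.44 for ZEB2 in replicates 1 and 3. The length joins the exons of all coding transcripts, 6500 bases for ZEB1 and 15644 for ZEB2, and the near equality depends on it. In SK-Mel-103, the IP level per length was 16.4 for ZEB1 and 3.79 for ZEB2. The highest ZEB2 bin of both UACC-62 replicates, the one printed above, held 25 IP reads in SK-Mel-103 and 38 and 41 in UACC-62, on 36, 29 and 34 input reads. The 20 bases of 19, 22 and 17 listed ZEB2 bins had another exact copy in the genome.

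AXL, the receptor of GAS6, showed a far larger difference than the other members with listed input reads in both lines. Its exons held 5727 IP reads in 188 bins in SK-Mel-103, but 21 reads in 3 bins and 24 reads in 4 bins in UACC-62 replicates 1 and 3. The input of these same listed bins held 8628 reads against 11 and 3. The log2 difference was 10.29 in input (SE 0.39, adjusted p = 2.0e-21) and 7.79 in IP (SE 0.51, adjusted p = 9.5e-10), and the 2 lines did not overlap. The input difference sets reads of 188 bins against those of 3 and 4, so the lists do not bound its size. With each absent UACC-62 bin set to the 4 IP reads that it may have held at most (up to 60 input reads), AXL was still at least 4.88-fold higher in SK-Mel-103 in the IP. Of the UACC-62 bins, 2 of 3 in replicate 1 and 1 of 4 in replicate 3 had 20 bases with other exact copies in the genome. Over the only bin listed in all 3 samples, the repeated one printed above, the IP difference was 1.26 (adjusted p = 0.21).

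AXL reads in SK-Mel-103 covered the whole transcript. Of 74 bins with more than 30 IP reads, 28 were in the 3′ UTR, 43 in the coding region and 3 in the 5′ UTR, and only 10 of the 74 had more IP than input reads relative to the library totals. The highest bin, printed above, held 119 IP reads on 137 input reads.

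NGFR and WNT5A were the other 2 genes of the invasive state. NGFR held 873 IP reads and 852 input reads over 93 bins in SK-Mel-103. It held no listed read in UACC-62 replicate 1 and 4 IP reads on no input in a single bin in replicate 3. It entered the tests through SK-Mel-103 alone, and neither a fold nor a p is given because the UACC-62 side had 4 reads in all. With absent bins set to the most they may have held, the NGFR fold fell to 0.891, so that its size is not bounded by these lists. Under the same setting, the IP fold fell to 0.680 for ZEB1 and 0.981 for CDH2 (SK-Mel-103 over UACC-62). It fell to 0.825 for SNAI2 and 0.369 for TWIST1 (UACC-62 over SK-Mel-103), so the lists do not bound these differences either. WNT5A held 129 IP reads in SK-Mel-103 against 9 and 44 in UACC-62, and 69 input reads against 3 and 13. Its log2 difference was 3.12 in input (SE 1.31, adjusted p = 0.062) and 2.26 in IP (SE 0.99, adjusted p = 0.12). SK-Mel-103 lay above both replicates, but no WNT5A bin was listed in all 3 samples, and the input call passed without TMM scaling (adjusted p = 0.049), as did the IP call (adjusted p = 0.035).

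Among the structural genes, VIM, the intermediate filament protein of mesenchymal cells, was abundant in both lines, whereas CDH2 was higher in SK-Mel-103. VIM held 21266 IP reads in SK-Mel-103 against 10825 and 13318 in UACC-62, and 33312 input reads against 43456 and 34287. The log2 difference was -0.18 in input (SE 0.18, adjusted p = 0.48) and 0.61 in IP (SE 0.46, adjusted p = 0.41). VIM's direction in input depended on the bins, at 0.48 over those listed in all 3 samples (adjusted p = 0.0034), and its IP difference passed without TMM scaling (1.11, adjusted p = 0.020). CDH2, the cadherin of motile melanoma cells, held 1276 IP reads in SK-Mel-103 against 293 and 214, and 1893 input reads against 406 and 196. It was higher in SK-Mel-103 by 2.71 on the log2 scale in input (SE 0.36, adjusted p = 1.6e-07) and by 2.04 in IP (SE 0.50, adjusted p = 0.0052). CDH2 reads were spread thinly, with no bin over 30 IP reads in any sample and 29 at most.

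CDH1 was close to the limit of the lists. Its exons held 28, 12 and 7 IP reads in 3, 2 and 1 listed bins, on 14, 6 and 2 input reads. The product, E-cadherin, anchors epithelial cells and melanocytes to their neighbours. The 20 bases of each of these bins occurred elsewhere in the genome, up to 1281 times, and whether the longer reads came from CDH1 was not tested. The log2 difference was 1.83 in input (SE 2.11, adjusted p = 0.55) and 1.24 in IP (SE 1.94, adjusted p = 0.74).

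**Figure D1:**
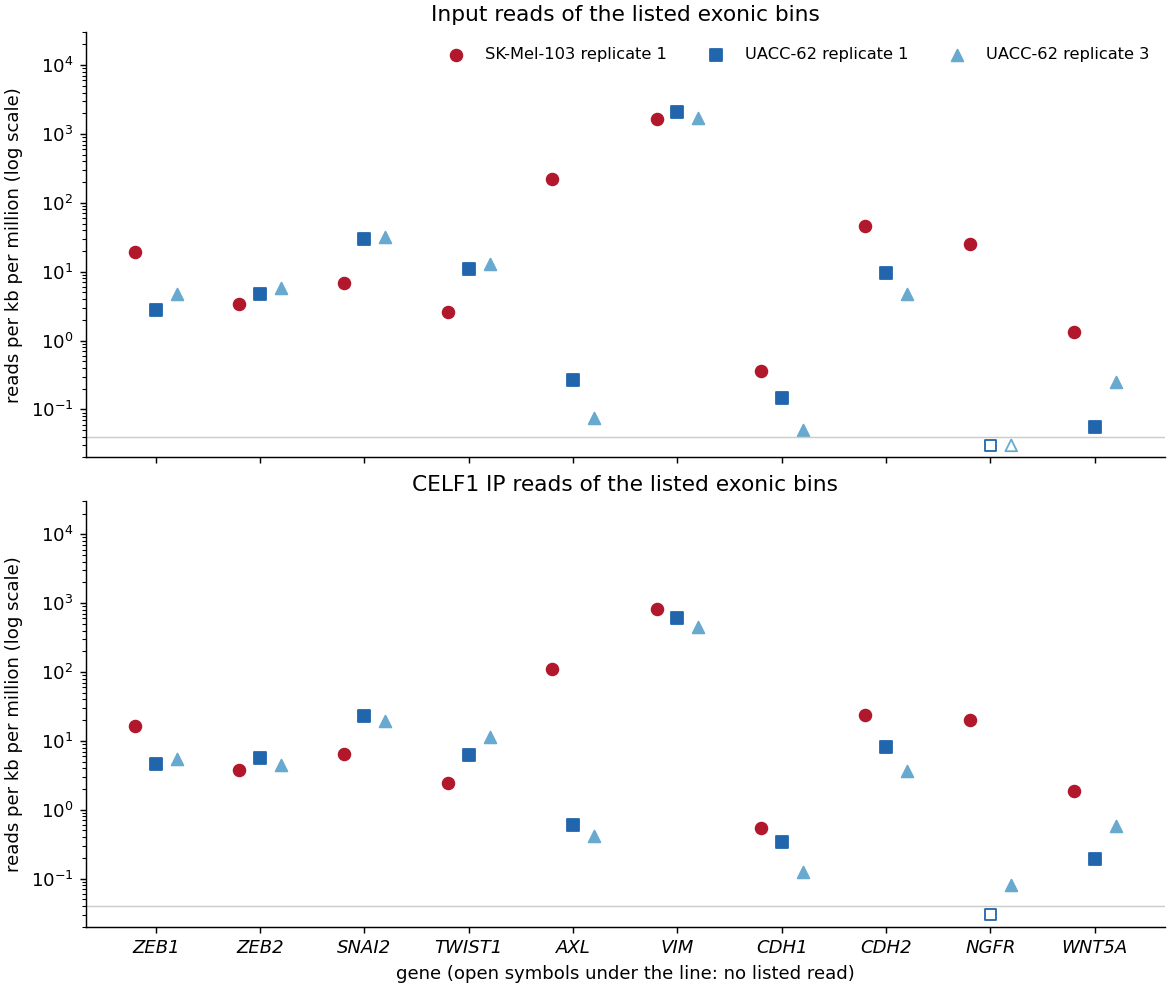
Input (upper) and CELF1 IP (lower) reads of the listed exonic bins of each gene, in RPKM, on a log axis with 1 point per sample. AXL, NGFR, CDH2 and ZEB1 stand higher in SK-Mel-103 in both fractions, SNAI2 and TWIST1 lower, and open symbols under the line mark no listed read.

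Per length, VIM was the most abundant member in every sample in both fractions, with an IP level of 812 RPKM in SK-Mel-103 and 607 and 457 in UACC-62. The second place differed between the lines. In SK-Mel-103 it was AXL, at 111 in IP, followed by CDH2 at 24.1 and NGFR at 19.9. In UACC-62 it was SNAI2, at 22.8 and 19.2 in IP, and AXL stood at 0.595 and 0.417. The order of ZEB1, ZEB2 and CDH2 in UACC-62 was not the same in both replicates, and these neighbours did not differ beyond the spread. CDH1, WNT5A and NGFR were at or near the end in UACC-62.

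NGFR was tested against no input reads, and its call is left out of the counts. Of the 9 other members, 3 passed as higher in SK-Mel-103 in input (ZEB1, AXL and CDH2) and 2 as lower (SNAI2 and TWIST1). Of 10499 genes tested, 15.3% and 19.2% did, and these shares still include genes called against no reads in a line. In IP, the same 3 genes passed as higher, again without NGFR, and SNAI2 as lower, against 7.34% and 12.0% of 11564 genes. The median difference over the 9 members other than NGFR was 1.83 in input and 1.24 in IP on the log2 scale, both the values of CDH1, and -0.04 and -0.06 over all genes. The all-gene split depends on scaling, as 849 genes were higher and 1392 lower in IP with TMM but 1465 and 1034 without it, when the median of all genes moved to 0.42. In input, 1607 and 2021 became 1853 and 1692. Input reads per listed bin are a further description of the same bins. For AXL they were 45.9 in SK-Mel-103 against 3.67 and 0.75, for ZEB1 8.41 against 5.20 and 3.85, for CDH2 15.9 against 8.83 and 5.60, and for SNAI2 6 against 14.0 and 11.6.

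**Figure D2:**
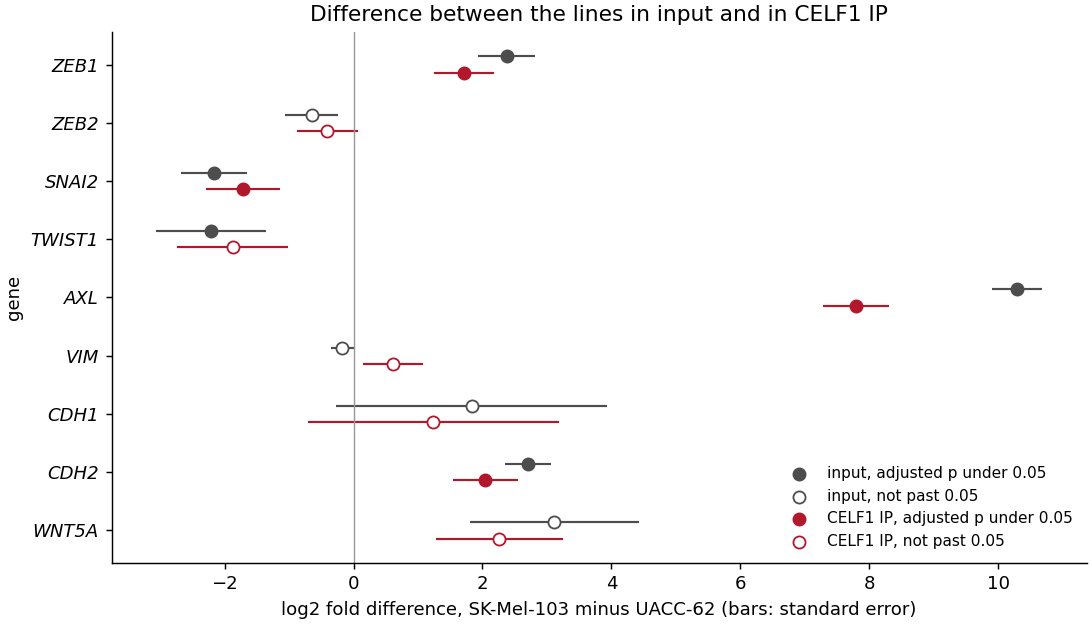
Log2 difference between SK-Mel-103 (n = 1) and UACC-62 (n = 2) in input and in CELF1 IP for 9 members, from edgeR with standard errors as bars; NGFR is left out because UACC-62 held 4 reads in all. Filled points passed an adjusted p of 0.05, and in each gene that passed in both fractions the IP difference lies nearer to 0 than the input difference.

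Strong bins, defined as the authors did by more than 30 IP reads, divided the members into classes. AXL, NGFR and ZEB1 had 74, 1 and 4 such bins in SK-Mel-103 and none in UACC-62, a class that held 4.51% of the 13140 genes. ZEB2 had 1 and 3 in UACC-62 replicates 1 and 3 and none in SK-Mel-103 (3.67% of genes). A single ZEB2 bin was strong in both replicates, with 38 and 41 IP reads, and it held 25 in SK-Mel-103. VIM had strong bins in each sample (14.2% of genes). SNAI2 and TWIST1 each had a single one, in UACC-62 replicate 3, and CDH1, CDH2 and WNT5A had none. VIM was the sole member with common strong bins, 53 in all 3 samples. It had 64, 64 and 61 per sample, of which 11, 14 and 14 were in the 3′ UTR and 53, 50 and 47 in the coding region. In VIM, 5 bins that held 200 to 1206 IP reads in UACC-62 were absent from the SK-Mel-103 list although their neighbours held up to 2113, and these were bins with 688 to 5539 input reads in UACC-62.

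**Figure D3:**
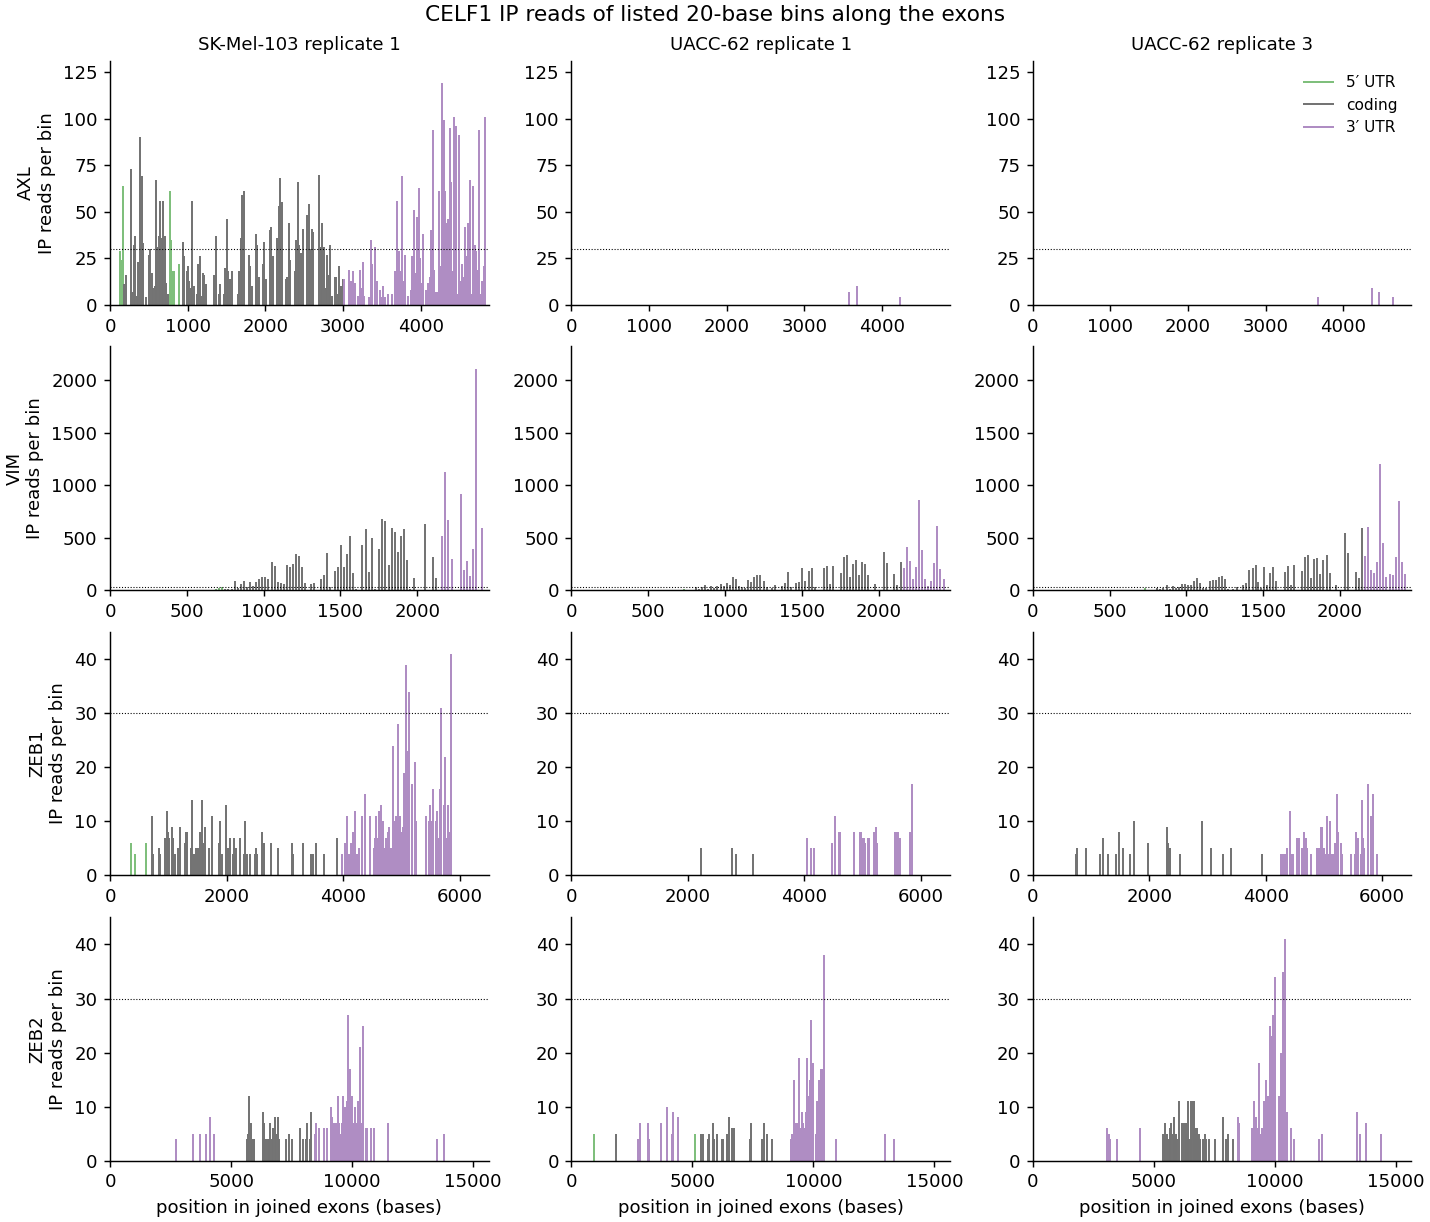
CELF1 IP reads of each listed 20-base bin along the joined exons of AXL, VIM, ZEB1 and ZEB2 (rows) in the 3 samples (columns), coloured by region, with a dotted line at 30 reads. Each row has 1 scale, so the 119 reads of the highest AXL bin in SK-Mel-103 can be set against at most 10 in UACC-62. Most ZEB1 and ZEB2 reads lie in the 3′ UTR in every sample.

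The 3′ UTR held more of the IP reads than of the exonic bins in each member with over 40 IP reads in every sample. For ZEB1 it took 65.7%, 91.6% and 71.6% of the IP reads in SK-Mel-103 and UACC-62 replicates 1 and 3, against 39.3% of the exonic bins. Input did the same, at 56.7%, 98.1% and 75.6%. For ZEB2 the shares were 74.4%, 79.2% and 68.3% of IP and 70.5%, 65.3% and 64.3% of input, against 60.9% of the bins. Per exonic bin, ZEB2 held 0.92, 0.70 and 1.49 IP reads in the coding region and 0.98, 1.05 and 1.18 in the 3′ UTR. SNAI2 had 86.3%, 82.1% and 83.1% of its IP reads there and 91.7%, 80.4% and 83.5% of its input reads. IP and input shares differed by at most 13.9 percentage points in ZEB1, ZEB2 and SNAI2, and the sign of that difference changed between samples for ZEB1 and SNAI2. In CDH2 and VIM it changed as well.

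The study searched 3′ UTRs for the GU-rich elements UGUGUGUGUGU and UGUUUGUUUGU with up to 2 mismatches, and the same search on the transcript strand was run here on each member. An element was present in 9 of 10 members, against 56.4% of 19307 genes, with VIM (322 bases of 3′ UTR) as the exception. ZEB2 had 15 in 9541 bases and was the only member with an exact element, of which it had 2. Exact elements occurred in 7.81% of the genes searched. Per kb, CDH2 had 4.29, TWIST1 2.83, SNAI2 1.65, ZEB2 1.57, ZEB1 1.18, WNT5A 0.914 and AXL 0.537, where the median of all genes was 0.524. CDH1 lay above that median with 4 in 2037 bases, and NGFR, with 1 in 1999 bases, and VIM lay below it. No bin printed above held an element. The 2 windows, a 3′ UTR and a 20-base bin, differ in length, and the match is a description of letters only.

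Whether the IP took up these transcripts differently in the 2 lines was read from IP over input, calculated as the log2 ratio of IP to input reads after division by the library totals, with 1 read added to each. In SK-Mel-103 it was -0.97 for AXL, -1.02 for VIM, -0.94 for CDH2, -0.34 for NGFR, -0.23 for ZEB1 and 0.18 for ZEB2, where the median of 11655 genes was -0.12. In UACC-62 replicates 1 and 3 it was -2.16 and -2.06 for VIM, -0.77 and -0.90 for SNAI2, -0.63 and -0.57 for CDH2, -0.18 and -0.54 for ZEB2 and 0.30 and 0.03 for ZEB1, around medians of -0.22 and -0.20. VIM therefore lay below the all-gene median in each sample, and CDH2 did too. The bins of a gene were listed only where the IP passed, so the level of these ratios is not that of the whole transcript.

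The difference between the lines in IP over input was tested by the interaction of line and fraction with the sample as a block. AXL was the single member that passed, at -2.62 on the log2 scale (SE 0.50, adjusted p = 6.2e-05), as lower in SK-Mel-103, where 4.74% of 11655 genes did. Without UACC-62 replicate 1 or 3 the value lay between -3.47 and -2.17. Its value was -0.97 in SK-Mel-103 and 0.72 and 1.95 in UACC-62. Those 2 values rest on 21 and 24 IP reads in bins that had to reach 4 IP reads to be listed, on 11 and 3 input reads. Over the single bin listed in all 3 samples, the repeated one printed above, the value was -2.54 (adjusted p = 0.051). It was -1.05 over strong bins and -2.55 without the sample block, neither of them called, and -2.59 with DESeq2 (adjusted p = 0.00099). The part of the listing threshold in it was not tested, so uptake by the IP and listing cannot be told apart in this call. ZEB1 (-0.73, SE 0.27, adjusted p = 0.075), CDH2 (-0.69, SE 0.28, adjusted p = 0.11), VIM (0.75, SE 0.38, adjusted p = 0.26), SNAI2 (0.41, SE 0.29, adjusted p = 0.48) and ZEB2 (0.20, SE 0.27, adjusted p = 0.80) did not pass, nor did TWIST1 (0.31, SE 0.44, adjusted p = 0.81) and WNT5A (-0.90, SE 0.57, adjusted p = 0.41). Over all genes 208 passed as higher and 552 as lower in SK-Mel-103, which became 463 and 113 without TMM scaling.

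**Figure D4:**
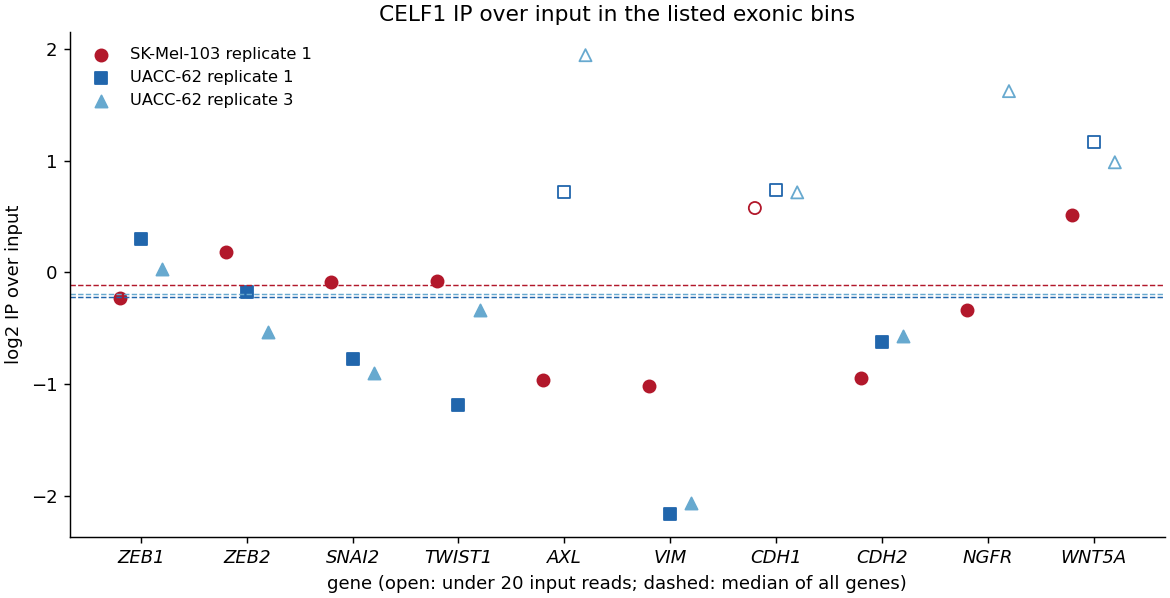
Log2 IP over input of the listed exonic bins of each gene, 1 point per sample, with open points for under 20 input reads and dashed lines at the median of all genes in each sample. VIM and CDH2 lie under the medians in all 3 samples, and the AXL points of UACC-62 are open because they rest on 11 and 3 input reads.

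AXL also carried a large intronic signal in SK-Mel-103, outside the exons that define the comparisons above. Its introns held 461 listed bins with 11181 IP reads on 1357 input reads, so that 66.1% of the IP reads of the gene but 13.6% of its input reads were intronic. The intronic share of IP reads was 69.6% in ZEB1 and 56.0% in CDH2 in the same sample, and 12.5% of genes had over 0.5 of their IP reads in introns. IP over input was 2.67 in the introns, against -0.97 in the exons. Of these reads, 88.8% (9933 IP reads on 755 input reads, IP over input 3.34) came from intron 4 of 19, which spans chr19:41727962-41736871 and 8910 bases. There, 120 bins exceeded 30 IP reads and the highest held 193. No gene of 11790 with IP reads in SK-Mel-103 had more intronic bins over 30 reads than AXL with its 123, the next having 66. Other genes held up to 126 and 159 such bins in UACC-62 replicates 1 and 3. In UACC-62 the introns of AXL held 5 IP reads in replicate 1 and none in replicate 3, and on the opposite strand in SK-Mel-103 they held 12.

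**Figure D5:**
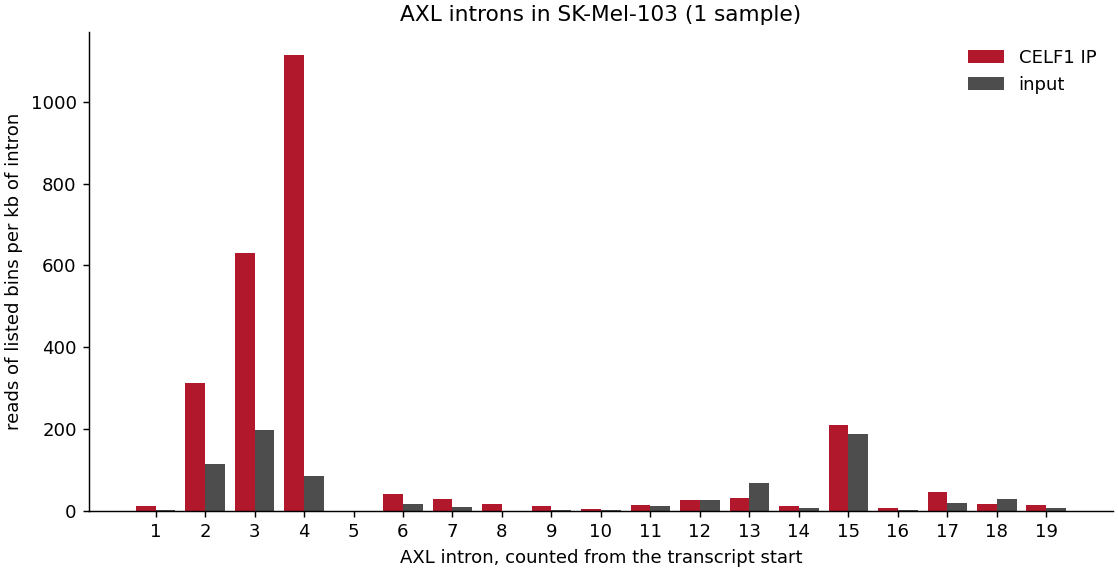
IP and input reads of the listed bins in each of the 19 AXL introns in SK-Mel-103 (1 sample), per kb of intron on the transcript strand. Intron 4 held 1115 IP reads per kb, above every other intron, the next being intron 3 with 630.

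Inside intron 4 lies the first exon of a shorter AXL coding transcript, whose 5 listed bins (chr19:41732661-41732800) held 154 IP reads on 8 input reads in SK-Mel-103. The bin there with 35 IP reads on 1 input read had the highest IP over input of the 74 strong AXL exonic bins, and its RNA is shown because it marks that exon.
AXL, chr19:41732681-41732700, plus strand: cagaacugcagucgcacuua
The 2000 bases before this exon held 3652 IP reads on 169 input reads, and the 2000 bases after it 2415 on 211, none of them in an exon. Reads of the exon and of the unspliced intron cannot be told apart. At the usual first exon, 3 bins held 117 IP reads on 47 input reads.

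Introns of ZEB1 and CDH2 showed the same direction, a higher IP over input than in their exons, at far lower counts. ZEB1 introns held 2591 IP reads on 1004 input reads in SK-Mel-103, against 273 on 34 and 234 on 13 in UACC-62, and CDH2 introns held 1626 on 803, 39 on 8 and 118 on none. No intronic bin of ZEB1 or CDH2 exceeded 30 IP reads. VIM in SK-Mel-103 did not, with an IP over input of -1.04 in introns and -1.02 in exons. Some members had almost no intronic reads, such as CDH1 with 7 IP reads on no input and NGFR with 19 on 2 in SK-Mel-103. The share of all genes with a higher IP over input in introns than in exons was not counted. A bin with little input is listed only if its IP reads reach the minimum, and the part of that in this direction was not tested. In SK-Mel-103, 2234 genes with at least 100 intronic IP reads had a median intronic IP over input of 1.52, and the medians of such genes in UACC-62 replicates 1 and 3 were 2.40 and 3.19.

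The wider program was read from 41 further genes of EMT and the invasive state, 35 of which had enough reads to be tested. Of these, 17 were higher and 6 lower in SK-Mel-103 in input, and 15 higher and 4 lower in IP. The median log2 differences were 1.08 and 0.90. Both the counts and the medians include genes with no listed input read in a line, at their fitted values. Among these, CCN1 counted as higher and ROR1 and FZD7 as lower in input, so their input calls rest on the reads of the other line alone. Over all genes tested, 15.3% were higher and 19.2% lower in input and 7.34% and 12.0% in IP, with medians of -0.04 and -0.06. The shares lower in input and in IP were therefore both close to those of all genes. TGFBI, a matrix protein induced by TGF-β, had 5203 IP reads in SK-Mel-103 against 4 and 20. CCN1, a matricellular target of YAP, had 2039 against none and 4. The lower genes included SERPINE2, a secreted protease inhibitor, with 7166 IP reads against 395705 and 206808, and fibronectin FN1, with 777 against 3243 and 2110. ROR1, a WNT5A receptor, was listed at 0 in SK-Mel-103 with 175 and 212 IP reads in UACC-62, and the WNT receptor FZD7 had 51 IP reads on no listed input against 176 and 137. No fold or p is given for either, since SK-Mel-103 had no listed input read in them.

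Of 15 epithelial and junction genes, 9 were tested, of which 2 were higher and 4 lower in input and none higher and 2 lower in IP. The all-gene shares just given are the background of these counts too, and nothing is read from 9 genes. The epithelial splicing regulator ESRP1 was at 0 in SK-Mel-103 and had 59 and 296 IP reads in UACC-62, and the tight junction gene CLDN1 was at 0 with 53 and 189. Both are among the genes counted as lower in input and in IP, through the reads of UACC-62 alone. CTNND1 and TJP1 were higher in SK-Mel-103 in input by 0.84 (SE 0.29, adjusted p = 0.024) and 1.19 (SE 0.43, adjusted p = 0.029). The catenins CTNNB1 and CTNNA1, which tie cadherins to the cytoskeleton, were lower by small amounts, at -0.64 (SE 0.23, adjusted p = 0.028) and -0.68 (SE 0.26, adjusted p = 0.037). DSP and KRT18 did not pass in either fraction.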

How the data were processed

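CELF1 RIP-Seq peak lists of 3 IP samples were analysed. The authors aligned single-end reads to GRCh37 with TopHat, allowing several placements per read, and called bins with Piranha 1.2.1 against the input. Counts of IP reads were deposited per 20-base bin without normalization, beside p-values and an input covariate (a signal) on a scale of its own. Whether the deposited p-value is corrected is not given in the sources used here. The covariate was a whole multiple of 1 step within 0.1 in 100% of bins, which gave input reads. The value 0.01 stands for no read. The listed strand is the reverse of the transcript for 98.5% of exonic bins.

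Bins were placed in exons of coding transcripts (GENCODE 44 lifted to GRCh37), summed per gene and compared with edgeR 4.0.16 (TMM, filterByExpr, quasi-likelihood test, Benjamini-Hochberg adjustment, 0.05). The SK-Mel-103 library was assumed to vary like the 2 UACC-62 replicates. In simulated counts with 4-fold and 16-fold changes, 13% and 93% were recovered in input, 6% and 59% in IP and 98% and 100% in IP over input. The simulated counts were independent, shared a single dispersion over all genes and had no listing threshold. These rates therefore do not carry over to the deposited lists. Intronic bins lay in no exon of any annotated gene. Alternatives, among them DESeq2 1.42.0, are given in the closing section. The p-values measure the spread between the 2 UACC-62 replicates alone, since SK-Mel-103 had 1 IP and 1 input library. The design text calls the samples biological duplicates.

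The members and gene lists were chosen with earlier results of these data known. Named beyond the 10 members were the 3 genes with the lowest adjusted p in each direction per list, in input and in IP, and cell type markers. A gene that this rule names is not reported here. Printed bins had the highest lowest-of-3 IP count of a member.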

Additional observations from a re-analysis of the deposited data

Results flagged for a closer look

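Intron 4 of AXL held an IP over input of 3.34 on the log2 scale in SK-Mel-103, in bins outside the exons that were compared, and lay above the input of the same sample and above UACC-62, where AXL introns held 5 and 0 IP reads. SK-Mel-103 had 1 sample, and this value has no replicate.

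IP over input of AXL differed between SK-Mel-103 and UACC-62 by -2.62 on the log2 scale in the interaction test, while the UACC-62 side held 21 and 24 IP reads on 11 and 3 input reads. These bins were listed only where the IP passed, and the part of that in the value was not tested.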

How the results depend on the processing

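Over bins with more than 30 IP reads, 0 genes differed in input (658 at an unadjusted p under 0.05 in edgeR, against 3628 over all listed bins), 137 in IP and 26 in IP over input, with 3754 genes tested in input instead of 10499. Over bins listed in all 3 samples, 987 genes differed in IP and 219 in IP over input, against 2241 and 760. DESeq2 called 72 genes in IP over input (12 higher and 60 lower in SK-Mel-103). No replicate block in that fit, in which the block pairs each IP with its own input, called 0 genes (194 at an unadjusted p under 0.05) and left AXL at -2.55 without a call. No other alternative moved these 3 counts by more than 1.5 times, exons of all transcripts (chosen after seeing the data) included. Directions turned for VIM in input (0.019 without TMM, 0.48 over common bins with an adjusted p of 0.0034, 0.023 over strong bins), for ZEB2 in IP without TMM (0.088), and over strong bins for ZEB1 (0.20) and ZEB2 (-0.037) in IP over input. VIM passed in IP without TMM (1.11, adjusted p = 0.020). Leaving out either UACC-62 replicate leaves 1 sample against 1, with no residual degrees of freedom and no count of calls, and turned no called member. The IP difference ranged from 7.57 to 8.05 for AXL, 1.60 to 2.73 for CDH2 and 1.60 to 1.88 for ZEB1, and that in IP over input from -3.47 to -2.17 for AXL. Common member bins numbered 156 when all listed bins were counted and 31 over 100 reads, and 54 to 58 without a UACC-62 replicate. With 0 or 1 mismatches, 1 member had a GU-rich element, against 7.81% and 21.7% of 19307 genes. WNT5A, TWIST1 and CDH1 held few IP reads, 129, 222 and 28 at most in a sample.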
